A study of Mus musculus with 8 samples.

Results

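Mural cells are the cells that wrap blood vessels, namely the pericytes of capillaries and the smooth muscle cells of larger vessels, and 9 genes used to recognise them were followed in the retina: *Pdgfb*, *Pdgfrb*, *Rgs5*, *Cspg4*, *Kcnj8*, *Abcc9*, *Des*, *Anpep* and *Acta2*. They were taken by symbol, and each of the 9 was found among the 54532 genes of the count table. Bulk RNA-seq compared 4 whole-retina samples of *Six3-Cre*+; *Mettl3* floxed/floxed mice (*Mettl3*-CKO) with 4 of littermate control mice, whose alleles the sample labels do not spell out. The age of the pups was day 7 after birth in the labels and day 6 in the methods of the study. *Mettl3* encodes the catalytic subunit of the complex that writes N6-methyladenosine (m6A) on RNA. *Six3-Cre* drives Cre recombinase in retinal progenitor cells (RPCs), so the mural cells of the retina, which arise outside the neural retina, are not a stated target of the deletion. In a bulk sample, fewer mural cells and less RNA of a gene per mural cell cannot be told apart.

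Pericytes are recruited to growing capillaries by the growth factor PDGF-B, which endothelial cells release and which pericytes sense through the receptor PDGFRB. In the mouse retina this takes place after birth, while the vessels spread from the optic nerve head to the edge over a network of astrocytes. Several genes used as pericyte markers are also used by other cells. *Cspg4*, which encodes the NG2 proteoglycan, is known from oligodendrocyte precursors and other immature cells, *Notch3* and the VEGF receptor gene *Kdr* are also transcribed by RPCs, and *Pdgfra*, the sister receptor of *Pdgfrb*, marks retinal astrocytes and fibroblasts.

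The 8 libraries held between 16227095 and 20281517 counts, so that 3 counts, taken as the detection floor, corresponded to between 0.148 and 0.185 CPM (counts scaled to one common library total). The targeted gene *Mettl3* stood at 29.3 to 33.8 CPM in controls and at 21.1 to 29.6 CPM in *Mettl3*-CKO retinas, with 1 *Mettl3*-CKO library inside the control range (edgeR log2 fold change -0.38 ± 0.12, adjusted p = 0.0602). Reads from cells without Cre and from exons outside the deleted segment count toward this value. The retinal genes *Nrl*, *Crx*, *Otx2*, *Pax6*, *Rlbp1*, *Rbpms* and *Slc17a7* were each well above the floor in every library. Of 9 genes that define the retina, 4 were called lower, *Rlbp1*, a gene of Müller glia (log2 fold change -1.28, adjusted p = 0.00305 from edgeR), the photoreceptor transcription factor genes *Nrl* (-0.79, adjusted p = 0.00861) and *Crx* (-0.42, adjusted p = 0.0374), and *Slc17a7*, a glutamate transporter gene of photoreceptors and bipolar cells (-0.61, adjusted p = 0.0280), and 1 was called higher. Controls 1 and 4 stood apart from the others. Control 4 held 5168 CPM of 14 lens genes against 9.02 to 99.8 CPM in the other controls and 8.29 to 27.8 CPM in *Mettl3*-CKO retinas. *Xist*, a transcript of female cells, stood at 3672 CPM in control 4 and 3736 CPM in *Mettl3*-CKO 4. In the other libraries it stood at 1.26 to 1.98 CPM. Fits without controls 1 and 4 therefore kept no control with high *Xist*. Control 1 lay farthest from the other controls on the first principal component and was the highest control for 9 of the 9 mural cell genes. The values of the mural cell genes without controls 1 and 4 are given beside each result that rests on them.

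*Rgs5* and *Abcc9* were lower and *Cspg4* was higher in *Mettl3*-CKO retinas. Of the 9 genes, 7 had enough counts for edgeR's filter, and at an adjusted p under 0.05 the quasi-likelihood test called 2 lower and 1 higher, with *Pdgfb*, *Pdgfrb*, *Des* and *Acta2* tested and not called. *Kcnj8* and *Anpep* had too few counts to be tested. The defining pericyte genes *Pdgfrb* and *Rgs5* were above the floor in all 8 libraries, as were *Pdgfb*, *Cspg4*, *Abcc9* and *Acta2*, while *Kcnj8*, *Des* and *Anpep* were at or under it in at least 1 library. Of all 17998 genes tested, 729 (4.05%) were called lower and 1168 (6.49%) higher. In 3 of the 9 genes (*Rgs5*, *Abcc9* and *Kcnj8*) every *Mettl3*-CKO library lay below every control, against 7.58% of all tested genes, which do not include *Kcnj8*, and in *Cspg4* every *Mettl3*-CKO library lay above every control, against 9.77% of all tested genes. The median log2 fold change over the 7 tested genes was -0.77, with 6 of 7 negative, beside -0.01 over all genes tested, where 9320 of 17998 were negative. With DESeq2 in place of edgeR, 3 of the 9 genes were called lower, with *Pdgfrb* added, and without controls 1 and 4 the test called *Rgs5* alone lower.

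**Figure D1:**
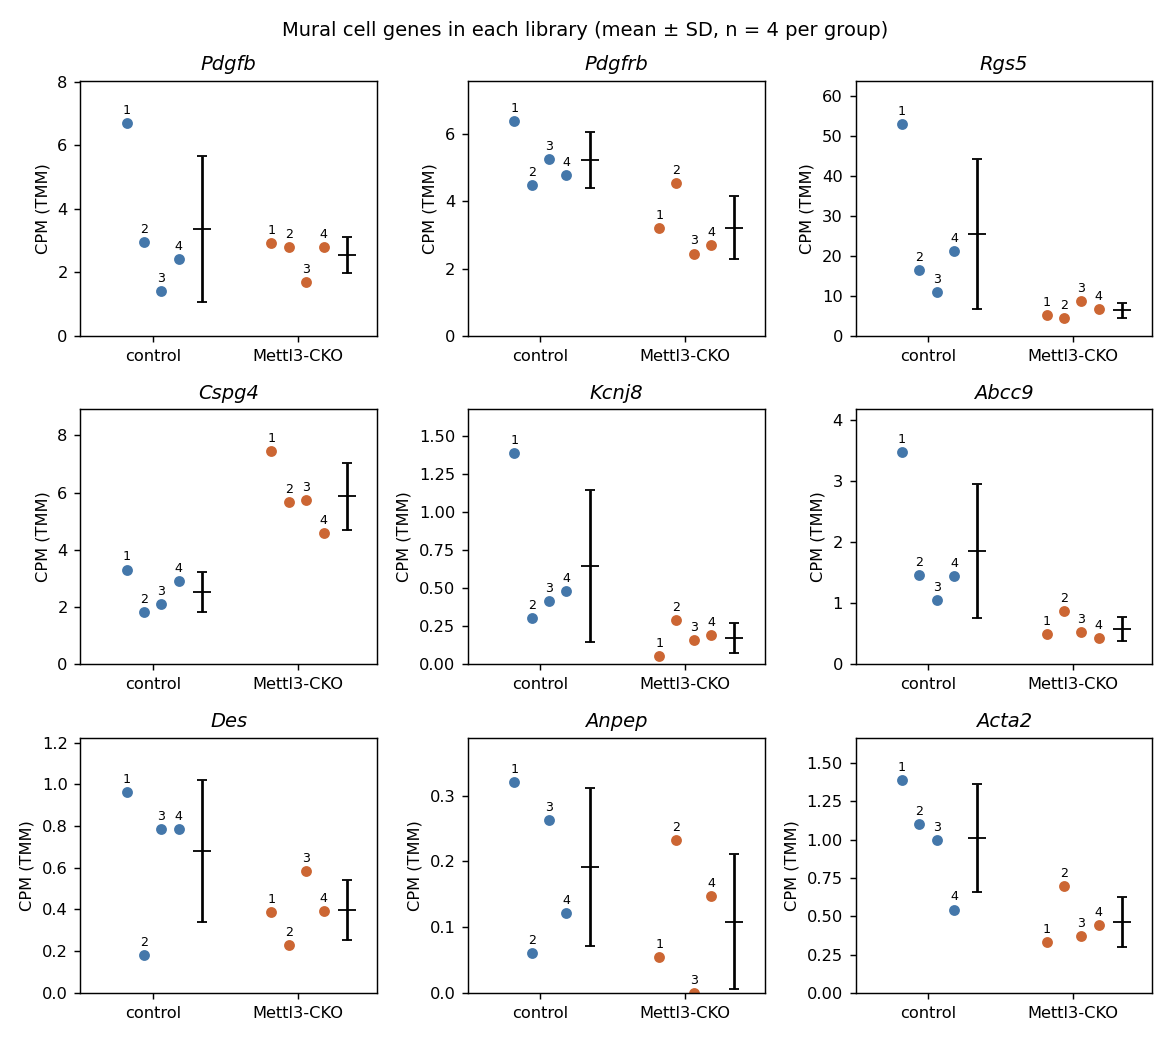
Level of each of the 9 mural cell genes in every library, in CPM after TMM scaling on a linear axis that starts at 0, with points numbered by replicate and bars for the mean ± SD of 4 control (blue) and 4 *Mettl3*-CKO (orange) libraries. Control 1 is the highest control in each panel, and the groups are fully apart for *Rgs5*, *Abcc9*, *Kcnj8* and *Cspg4*.

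The start regions of these 4 genes with separate groups are shown because the genes moved in opposite directions while carrying the same marker label. The windows are from RefSeq (GRCm38.p6), which matched 7 of the 9 genes, and each covers 250 bases before and 50 bases after the annotated start. Capitals mark matches on either strand to the motifs searched. These were the TATA-like words TATAAA and TATATA and the SP1-type word GGGCGG (read as CCGCCC on the other strand). Also searched were the RBPJ-type word TGGGAA, through which Notch signals act, and the CArG box of smooth muscle genes. That box was searched only in its strict form, CCWWWWWWGG with W for A or T. The *Rgs5* window lies at chr1:169655251-169655550 on the plus strand, that of *Abcc9* at chr6:142702225-142702524 and that of *Kcnj8* at chr6:142571565-142571864, both on the minus strand, and that of *Cspg4* at chr9:56864854-56865153 on the plus strand.
Rgs5: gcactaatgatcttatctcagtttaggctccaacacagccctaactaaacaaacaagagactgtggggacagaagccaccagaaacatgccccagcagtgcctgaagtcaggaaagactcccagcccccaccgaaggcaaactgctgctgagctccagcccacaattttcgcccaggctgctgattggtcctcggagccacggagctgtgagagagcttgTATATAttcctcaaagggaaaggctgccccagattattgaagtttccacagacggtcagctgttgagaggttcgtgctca
Abcc9: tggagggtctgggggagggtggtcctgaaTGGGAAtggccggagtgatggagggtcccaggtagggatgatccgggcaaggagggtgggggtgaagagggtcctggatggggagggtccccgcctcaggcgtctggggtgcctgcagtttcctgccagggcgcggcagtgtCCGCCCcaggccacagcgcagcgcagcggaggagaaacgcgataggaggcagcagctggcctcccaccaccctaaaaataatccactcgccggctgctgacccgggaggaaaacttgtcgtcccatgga
Kcnj8: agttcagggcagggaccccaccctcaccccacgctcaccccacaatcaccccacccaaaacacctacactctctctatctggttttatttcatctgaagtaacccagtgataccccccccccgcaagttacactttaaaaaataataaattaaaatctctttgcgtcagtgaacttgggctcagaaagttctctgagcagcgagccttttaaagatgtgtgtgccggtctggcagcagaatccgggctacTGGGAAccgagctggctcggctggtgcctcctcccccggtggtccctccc
Cspg4: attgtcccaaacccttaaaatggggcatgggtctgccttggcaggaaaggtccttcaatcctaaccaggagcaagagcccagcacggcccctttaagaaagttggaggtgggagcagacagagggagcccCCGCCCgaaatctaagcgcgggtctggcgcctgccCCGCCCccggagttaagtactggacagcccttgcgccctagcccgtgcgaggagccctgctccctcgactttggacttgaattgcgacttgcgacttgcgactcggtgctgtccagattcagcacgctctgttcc

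The *Rgs5* window held TATATA from 30 to 25 bases before the start, a word present in 5.67% of 32851 windows of this length. That of *Acta2* held it at bases 9 to 14 counted from the RefSeq start. RefSeq starts can differ from the gene ranges used for the counts. The *Acta2* window is chr19:34255324-34255623 on the minus strand, and its gene range ends at 34255336, so the word lies before that start. For *Anpep* the window is chr7:79848161-79848460 and the gene range ends at 79861059. The *Cspg4* window held GGGCGG on the other strand at 2 places, as did that of *Des*, that of *Abcc9* held it at 1 place and that of *Anpep* held it at 4, against 35.7% of all windows with at least 1 match. TGGGAA was found once each in the windows of *Abcc9*, *Kcnj8* and *Acta2* and in 25.6% of all windows. Neither TATAAA (13.6% of all windows) nor the strict form of the CArG box (1.63%) was found in the 7 windows. Looser forms of that box, with another base inside, were not searched, so its absence is not shown. The windows of *Abcc9* and *Kcnj8* shared TGGGAA, which that of *Rgs5* did not hold. These matches are a description of the letters and not of binding sites.

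*Pdgfb* encodes the ligand that endothelial cells use to draw pericytes. It lies on the minus strand at chr15:79995874-80014977 (GRCm38, ENSMUSG00000000489). Its level was 6.69, 2.94, 1.42 and 2.42 CPM in controls 1 to 4 and 2.93, 2.78, 1.70 and 2.79 CPM in *Mettl3*-CKO retinas 1 to 4. The groups overlapped throughout, with the highest and the lowest of the 8 values both in controls. Controls averaged 3.37 ± 2.30 CPM and *Mettl3*-CKO retinas 2.55 ± 0.571 CPM (SD, n = 4 each). In edgeR the log2 fold change of -0.40 was about as large as its standard error of 0.39 (adjusted p = 0.577, two-sided exact permutation test p = 0.771). Without control 1 the log2 fold change was 0.19 (adjusted p = 0.682), so the sign of the difference rested on that library, and without controls 1 and 4 it was 0.24 (adjusted p = 0.689). An antisense gene within its range, *Gm41361*, held 5 counts over the controls and 15 over the *Mettl3*-CKO libraries.

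*Pdgfrb* encodes the receptor for PDGF-B on pericytes and is the gene most often used to define them. Its plus-strand gene spans chr18:61045150-61085061 (ENSMUSG00000024620). Its level was 6.37, 4.47, 5.25 and 4.77 CPM in controls 1 to 4 and 3.21, 4.52, 2.44 and 2.69 CPM in *Mettl3*-CKO retinas 1 to 4. *Mettl3*-CKO 2 lay just above the lowest control, and the other 3 *Mettl3*-CKO libraries lay below all controls. Controls averaged 5.21 ± 0.832 CPM against 3.22 ± 0.928 CPM in *Mettl3*-CKO retinas (SD, n = 4 each), and the log2 fold change of -0.70 ± 0.22 (standard error) was just short of the threshold in edgeR (adjusted p = 0.0553, two-sided exact permutation test p = 0.0571). DESeq2 placed it past the threshold (adjusted p = 0.0239), as did limma voom with sample quality weights (adjusted p = 0.0133), edgeR without the filter on low counts (adjusted p = 0.0406) and edgeR without *Mettl3*-CKO 2 (log2 fold change -0.91, adjusted p = 0.0237). The other 12 alternatives did not, among them edgeR without controls 1 and 4 (log2 fold change -0.61, adjusted p = 0.133) and without *Mettl3*-CKO 1, 3 or 4 (adjusted p = 0.142, 0.146 and 0.135).

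Of the 6 genes for PDGF ligands and receptors, each passed the filter, and 1 was called, *Pdgfra*, which fell. Its level was 64.7 to 135 CPM in controls and 36.8 to 53.0 CPM in *Mettl3*-CKO retinas, a log2 fold change of -0.87 (adjusted p = 0.0173 from edgeR). The ligands other than *Pdgfb* had log2 fold changes of 0.19 for *Pdgfa*, 0.25 for *Pdgfc* and -0.16 for *Pdgfd*, with adjusted p-values of 0.506, 0.241 and 0.738. The median log2 fold change of the 6 genes was -0.28.

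*Rgs5*, a regulator of G protein signalling that is among the most abundant pericyte transcripts, fell the most of the 7 tested genes. It lies at chr1:169655501-169695813 on the plus strand (ENSMUSG00000026678). Its level was 53.1, 16.4, 11.1 and 21.4 CPM in controls 1 to 4 and 5.36, 4.52, 8.87 and 6.79 CPM in *Mettl3*-CKO retinas 1 to 4. Every *Mettl3*-CKO library lay below every control, while the controls alone spanned from 11.1 to 53.1 CPM. On average it stood at 25.5 ± 18.9 CPM in controls and 6.39 ± 1.90 CPM in *Mettl3*-CKO retinas (SD, n = 4 each). The edgeR log2 fold change was -1.99 ± 0.41 (standard error), or 25.1% of the control level, with an adjusted p of 0.00931. The two-sided exact permutation test gave p = 0.0286, the smallest that 4 libraries against 4 allow. Control 1 carried much of the size, since without it the log2 fold change was -1.34 (adjusted p = 0.00107), and without controls 1 and 4 it was -1.10 (adjusted p = 0.00926). The call was lost in 1 of the 8 fits that left out a library, without *Mettl3*-CKO 1 (log2 fold change -1.91, adjusted p = 0.0524).

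*Abcc9* encodes SUR2, the regulatory subunit of the ATP-sensitive potassium (KATP) channel of mural cells, and it fell. It lies on the minus strand at chr6:142587862-142702315 (ENSMUSG00000030249). Its level was 3.48, 1.47, 1.05 and 1.45 CPM in controls 1 to 4 and 0.498, 0.870, 0.531 and 0.440 CPM in *Mettl3*-CKO retinas 1 to 4, on 133 and 43 counts in all. The groups did not overlap, and the gap between the lowest control and the highest *Mettl3*-CKO library was narrow beside the height of control 1. Controls averaged 1.86 ± 1.09 CPM against 0.585 ± 0.194 CPM (SD, n = 4 each), 3.19-fold lower in edgeR, with a log2 fold change of -1.68 ± 0.42 (± standard error, edgeR adjusted p = 0.0238, two-sided exact permutation test p = 0.0286). The call was lost without *Mettl3*-CKO 1 (adjusted p = 0.0922), 3 (0.0675) or 4 (0.0667) and without controls 1 and 4 (log2 fold change -1.11, adjusted p = 0.0974), and without control 1 it held at a log2 fold change of -1.17 (adjusted p = 0.0267). An antisense gene within its range, *5330439B14Rik*, held 0 counts.

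*Kcnj8* encodes Kir6.1, the pore subunit that pairs with SUR2 in the same channel, and its gene lies 16247 bases from that of *Abcc9*, at chr6:142564837-142571614 on the minus strand (ENSMUSG00000030247). It had 26, 5, 8 and 8 counts in controls 1 to 4 and 1, 5, 3 and 4 counts in *Mettl3*-CKO retinas 1 to 4. In CPM every *Mettl3*-CKO library (0.0553 to 0.290) lay below every control (0.306 to 1.39), with control 2 and *Mettl3*-CKO 2 at nearly the same level and both on 5 counts. The gene was removed by the filter, and the two-sided exact permutation test gave p = 0.0286. Summed over libraries, 13 counts in *Mettl3*-CKO retinas against 47 in controls gave a ratio of 0.264 (95% interval 0.131 to 0.496, for counting error only). Fitted in edgeR without the filter, its log2 fold change was -1.87 ± 0.61 (standard error, adjusted p = 0.0529).

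The other pair of KATP channel subunits had log2 fold changes near 0. *Kcnj11*, the pore subunit known from neurons and beta cells, stood at 7.46 ± 1.46 CPM in controls and 7.27 ± 0.841 CPM in *Mettl3*-CKO retinas (SD, n = 4 each), with a log2 difference of -0.04 ± 0.17 (standard error, edgeR adjusted p = 0.923). *Abcc8*, which encodes its partner SUR1, stood at 14.3 ± 1.48 and 14.7 ± 0.492 CPM (SD, n = 4 each), with a log2 difference of 0.04 ± 0.11 (standard error, edgeR adjusted p = 0.862). Of the 4 subunit genes, 3 were tested and 1 was called, *Abcc9*.

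**Figure D2:**
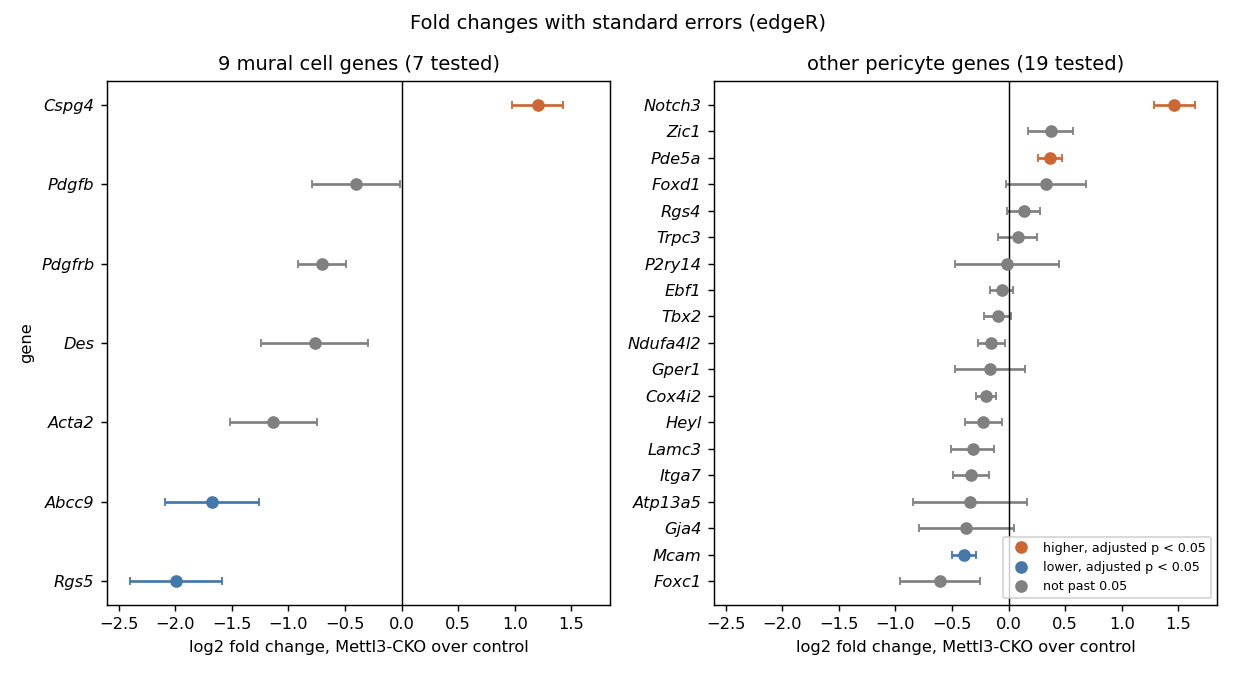
Log2 fold change of *Mettl3*-CKO over control with its standard error (edgeR) for the 7 tested mural cell genes on the left and 19 tested other pericyte genes on the right, orange for higher and blue for lower at an adjusted p under 0.05, grey otherwise. *Rgs5* and *Abcc9* lie at -1.99 and -1.68, *Cspg4* and *Notch3* at 1.20 and 1.46, and most other pericyte genes lie near 0.

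*Cspg4* was the gene of the 9 that rose. It lies at chr9:56865033-56899870 on the plus strand (ENSMUSG00000032911). Its level was 3.32, 1.84, 2.10 and 2.90 CPM in controls 1 to 4 and 7.47, 5.68, 5.74 and 4.59 CPM in *Mettl3*-CKO retinas 1 to 4. Every *Mettl3*-CKO library lay above every control, and control 1, which was high for the genes that fell, was also the highest control here. On average it stood at 2.54 ± 0.689 CPM in controls and 5.87 ± 1.19 CPM in *Mettl3*-CKO retinas (SD, n = 4 each). This was 2.30-fold higher in edgeR, with a log2 fold change of 1.20 ± 0.22 (± standard error, edgeR adjusted p = 0.00612, two-sided exact permutation test p = 0.0286). It was called in each of the 16 alternative fits, and over the 8 that left out a library its log2 fold change ran from 1.07 to 1.36. Without controls 1 and 4 it was 1.56 (adjusted p = 0.00184).

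Since *Cspg4* and several other pericyte genes are used by immature cells too, genes of RPCs and of the cell cycle were set beside it. Of 16 such genes, all 16 were tested, 4 were called higher and none lower, with a median log2 fold change of 0.36. The 3 with a negative log2 fold change were the RPC genes *Rax* (-0.10), *Hes5* (-0.12) and *Sfrp2* (-0.11). Their adjusted p-values from edgeR were 0.654, 0.658 and 0.848. DESeq2 called 7 higher, and edgeR without controls 1 and 4 called 3. Those called included *Mki67*, a marker of cycling cells (0.98, adjusted p = 0.000701), *Fgf15*, a growth factor gene of RPCs (1.08, adjusted p = 0.00612), and *Lhx2*, an RPC transcription factor gene (0.52, adjusted p = 0.0312). The summed level of the 16 genes was 2701 to 3584 CPM in controls and 3707 to 4958 CPM in *Mettl3*-CKO retinas, with no overlap. Its largest parts were *Ccnd1*, at means of 993 and 1261 CPM, and *Mki67*, at 459 and 905 CPM. Control 1 had the lowest sum of the 8 libraries and *Mettl3*-CKO 2 the highest. The part of these cells in the rise of *Cspg4* was not tested. Oligodendrocyte precursor genes, the other known home of *Cspg4*, gave 1 higher (*Cnp*, log2 fold change 0.38, adjusted p = 0.0367) and 1 lower (*Pdgfra*) of 5 tested. Of the lineage's transcription factor genes, *Olig2* and *Sox10* were not called and *Olig1* was filtered. *Olig2* held 1696 counts over the controls and 2252 over the *Mettl3*-CKO libraries (log2 fold change 0.34, adjusted p = 0.140). *Sox10* held 51 and 46, and *Olig1* held 28 and 30. Which cells the *Olig2* reads came from was not tested.

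*Acta2* encodes alpha smooth muscle actin, the contractile actin of arteriolar smooth muscle, and lies on the minus strand at chr19:34241090-34255336 (ENSMUSG00000035783). Its level was 1.39, 1.10, 0.997 and 0.544 CPM in controls 1 to 4 and 0.332, 0.696, 0.372 and 0.440 CPM in *Mettl3*-CKO retinas 1 to 4, on 72 and 34 counts in all. Control 4 lay below *Mettl3*-CKO 2, and the other 3 controls lay above all *Mettl3*-CKO libraries. Controls averaged 1.01 ± 0.352 CPM and *Mettl3*-CKO retinas 0.460 ± 0.164 CPM (SD, n = 4 each), and the edgeR log2 fold change of -1.14 ± 0.38 (standard error) did not pass the threshold (adjusted p = 0.0802, two-sided exact permutation test p = 0.0571). Limma voom with sample quality weights placed it past the threshold (adjusted p = 0.0413), and the other 14 alternatives did not, with adjusted p-values from 0.0549 without control 4 to 0.224 without *Mettl3*-CKO 1, and of 0.102 in DESeq2 and 0.0932 without controls 1 and 4. Actin genes are near-identical in sequence, so reads of *Acta2* may have been shared with its paralogs or lost to them.

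*Des* encodes desmin, the intermediate filament of muscle cells and pericytes, and lies at chr1:75360329-75368579 on the plus strand (ENSMUSG00000026208). It had 18, 3, 15 and 13 counts in controls 1 to 4 and 7, 4, 11 and 8 counts in *Mettl3*-CKO retinas 1 to 4. Control 2 was the lowest of the 8 libraries, and the other 3 controls lay above all *Mettl3*-CKO libraries. Controls averaged 0.680 ± 0.341 CPM and *Mettl3*-CKO retinas 0.399 ± 0.144 CPM (SD, n = 4 each), and in edgeR the log2 fold change was -0.77 ± 0.47 (standard error, adjusted p = 0.352, two-sided exact permutation test p = 0.314). Without controls 1 and 4 it was -0.31 (adjusted p = 0.787).

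*Anpep* encodes aminopeptidase N (CD13), a surface enzyme of pericytes, and lies on the minus strand at chr7:79821803-79861059 (ENSMUSG00000039062). It had 6, 1, 5 and 2 counts in controls 1 to 4 and 1, 4, 0 and 3 counts in *Mettl3*-CKO retinas 1 to 4, most of them near the floor of 3 counts. The groups overlapped (two-sided exact permutation test p = 0.314). Summed over libraries, 8 counts in *Mettl3*-CKO retinas against 14 in controls gave a ratio of 0.545 (95% interval 0.198 to 1.39, for counting error only), so no difference was detectable at this depth.

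Of 10 other smooth muscle genes 6 were tested, and 0 were called in either direction by edgeR, DESeq2 or edgeR without controls 1 and 4, and their median log2 fold change was 0.01. *Tagln*, which encodes the actin-binding protein transgelin, had a log2 fold change of -0.42 (adjusted p = 0.494 from edgeR). Of the 6 tested, 3 were negative, and *Myl9* (0.27, adjusted p = 0.654), *Mylk* (0.14, adjusted p = 0.308) and *Lmod1* (0.09, adjusted p = 0.812) were positive. *Myh11*, the smooth muscle myosin heavy chain gene that defines these cells, was filtered with 34 counts over the controls and 28 over the *Mettl3*-CKO libraries. The other filtered genes *Cnn1*, *Pln* and *Actg2* held 23, 8 and 5 counts over the controls and 36, 14 and 7 over the *Mettl3*-CKO libraries.

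**Figure D3:**
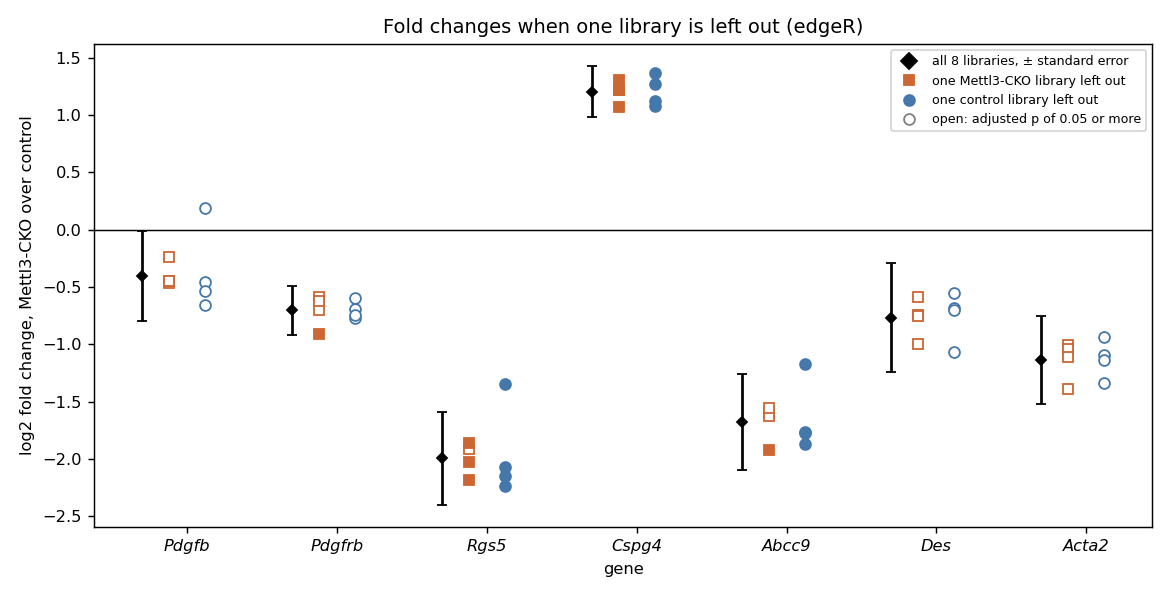
Log2 fold change of *Mettl3*-CKO over control (edgeR) for the 7 tested mural cell genes with all 8 libraries (black, ± standard error) and with each library left out in turn, squares for *Mettl3*-CKO and circles for control libraries, open where the adjusted p was 0.05 or more. *Cspg4* stays filled throughout, *Rgs5* is open in 1 and *Abcc9* in 3 of 8 fits, and *Pdgfb* crosses 0 when control 1 is left out.

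Of a wider list of 24 genes known from pericytes 19 were tested. Of these, 2 were called higher and 1 lower, and the median log2 fold change was -0.15. *Notch3*, the Notch receptor of mural cells that RPCs also transcribe, rose the most, from 10.6, 13.5, 16.8 and 15.5 CPM in controls 1 to 4 to 51.9, 40.9, 29.9 and 32.8 CPM in *Mettl3*-CKO retinas 1 to 4, with no overlap. In edgeR this was a log2 fold change of 1.46 ± 0.18 (± standard error, edgeR adjusted p = 0.000659). *Pde5a*, which encodes a cyclic GMP phosphodiesterase of smooth muscle, rose by a log2 fold change of 0.37 (adjusted p = 0.0449), and *Mcam*, the gene for the adhesion molecule CD146, fell, with a log2 fold change of -0.39 (adjusted p = 0.0298). Without controls 1 and 4, 1 gene of the list was called higher and 1 lower.

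Of the 5 filtered genes of that list, each had fewer counts in *Mettl3*-CKO retinas than in controls. *Foxf2*, a transcription factor gene of brain pericytes, held 78 counts over the controls and 9 over the *Mettl3*-CKO libraries, with no overlap of the groups in CPM. *Higd1b*, used as a pericyte marker, held 35 and 14 counts, also with no overlap. *Tbx18*, a mural transcription factor gene, held 12 and 1 counts, *Art3* held 23 and 7, and *Steap4* held 2 and 0, the last at or under the floor in both groups. *Foxf2*, *Higd1b* and *Art3* were named after their values had been seen. These low genes were given no test. The abundant genes of the list, among them *Tbx2* at 234 to 347 CPM and *Rgs4* at 81.0 to 126 CPM in controls, are also transcribed by retinal neurons. The list's summed level was 731 to 909 CPM in controls and 756 to 884 CPM in *Mettl3*-CKO retinas.

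Levels of different genes were set side by side only per length, as FPKM (counts scaled to the length of the gene model and to the library total). In controls *Rgs5* stood highest, at 5.53 ± 3.96 FPKM (SD, n = 4, range 2.44 to 11.3), and its range lay above that of the next gene, *Pdgfrb*, at 0.945 ± 0.132 FPKM (range 0.821 to 1.12). Below *Pdgfrb* came *Pdgfb* (0.798 FPKM), *Acta2* (0.561), *Kcnj8* (0.251), *Abcc9* (0.219), *Cspg4* (0.211), *Des* (0.179) and *Anpep* (0.0457), and each of these overlapped its neighbour in the order over the 4 controls. *Rgs5* alone made up 47.5% to 68.9% of the summed CPM of the 9 genes in a control.

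In *Mettl3*-CKO retinas *Rgs5* was again highest, at 1.41 ± 0.412 FPKM (range 0.992 to 1.93). *Cspg4*, seventh in controls, was the fourth gene, at 0.493 ± 0.100 FPKM (SD, n = 4, range 0.388 to 0.630), behind *Pdgfb* (0.614 FPKM) and *Pdgfrb* (0.588 FPKM), whose ranges overlapped its own. The summed CPM of the 9 genes was 77.0, 28.8, 23.4 and 34.9 in controls 1 to 4 and 18.5 to 20.4 in *Mettl3*-CKO retinas, with no overlap.

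Pericytes and endothelial cells share the capillary, so endothelial genes were set beside the mural ones. Of 20 endothelial genes 16 were tested, 10 were called lower and none higher, with a median log2 fold change of -1.19. The 4 with the smallest adjusted p were *Flt1*, a VEGF receptor gene (-1.34, adjusted p = 0.00282), *Tie1*, a receptor gene of the angiopoietin system (-2.28, adjusted p = 0.0148), *Vwf*, which encodes von Willebrand factor (-1.67, adjusted p = 0.0153), and *Cdh5*, the gene for VE-cadherin (-1.86, adjusted p = 0.0182). Without controls 1 and 4, 5 of the 16 were called lower. *Kdr* stood apart, at 481 to 624 CPM in controls and 524 to 616 CPM in *Mettl3*-CKO retinas (log2 fold change 0.02, adjusted p = 0.921), and it made up 79.5% to 92.6% of the summed level of the list in controls and 94.0% to 94.7% in *Mettl3*-CKO retinas.

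The summed level of the 19 endothelial genes other than *Kdr* was 124, 58.7, 49.8 and 58.1 CPM in controls 1 to 4 and 34.3, 29.2, 34.6 and 38.3 CPM in *Mettl3*-CKO retinas 1 to 4. The groups did not overlap, and control 1 was again far above the other controls. The level of each mural cell gene, and of *Notch3*, was divided by this sum, a choice made after the share of *Kdr* had been seen. It is given per 1000 of the sum as a description with no test. The sum averaged 72.7 ± 34.6 CPM in controls and 34.1 ± 3.71 CPM in *Mettl3*-CKO retinas (SD, n = 4 each). A gene of unchanged CPM therefore rises on this scale, and the ratios below include the fall of the sum.

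*Cspg4* then stood at 26.7 to 49.9 per 1000 in controls and 120 to 218 per 1000 in *Mettl3*-CKO retinas, a ratio of means of 4.65, and *Notch3* at 230 ± 106 and 1158 ± 348 per 1000 (SD, n = 4 each), both with separate groups. *Rgs5* stood at 324 ± 90.7 per 1000 in controls and 186 ± 47.7 per 1000 in *Mettl3*-CKO retinas (SD, n = 4 each), and the groups overlapped, since *Mettl3*-CKO 3 at 256 lay above control 3 at 223. *Abcc9* stood at 24.8 ± 2.84 per 1000 in controls, where its spread was narrow, and at 17.8 ± 8.16 per 1000 in *Mettl3*-CKO retinas, with *Mettl3*-CKO 2 at 29.8 above all controls. *Kcnj8*, at 8.29 and 5.31 per 1000, overlapped too. *Pdgfrb* stood at 78.7 ± 22.2 and 97.3 ± 39.8 per 1000, and *Pdgfb* at 43.5 and 75.6 per 1000 on average, both with overlapping groups. *Acta2* (14.8 and 13.9 per 1000), *Des* (3.13 to 15.8 and 7.94 to 16.9) and *Anpep* (2.74 and 3.35) overlapped as well.

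**Figure D4:**
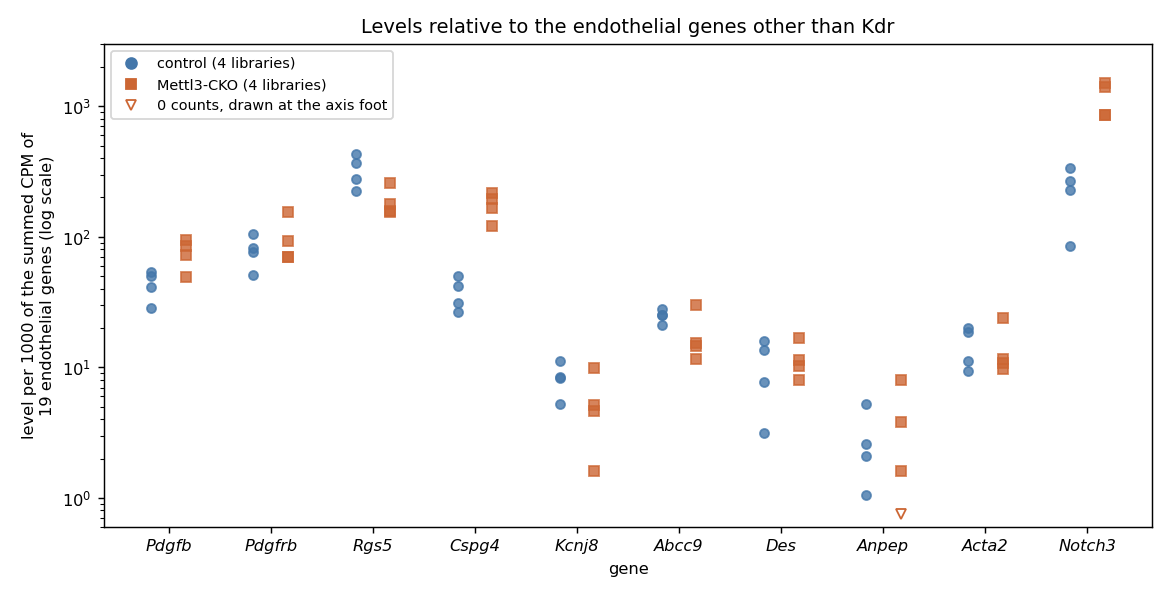
Level of the 9 mural cell genes and *Notch3* per 1000 of the summed CPM of 19 endothelial genes (log axis), with circles for 4 control and squares for 4 *Mettl3*-CKO libraries, and an open triangle for a library with 0 counts. The groups are separate for *Cspg4* (26.7 to 49.9 against 120 to 218) and *Notch3* and overlap for the other 8 genes, *Rgs5* included.

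Of 12 genes of the signals that pass between endothelial and mural cells, 11 were tested and 0 were called by edgeR, with a median log2 fold change of -0.29 and 8 of 11 negative. DESeq2 called 1 higher and 2 lower. The nearest to the threshold were *S1pr3*, a sphingosine 1-phosphate receptor gene (0.37, adjusted p = 0.0521), *Jag1*, the gene of a Notch ligand of endothelial cells (-0.47, adjusted p = 0.0570), and *Angpt2*, the angiopoietin gene of sprouting vessels (-0.43, adjusted p = 0.0715), which were named after their values had been seen. In each of these the groups did not overlap.

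Markers of other cells that a dissected retina can hold moved with the mural cell genes in several cases, and their part in the results was not tested. Erythrocyte genes summed to 14.1 to 26.5 CPM in controls and 4.35 to 7.38 CPM in *Mettl3*-CKO retinas, with 2 of 3 tested called lower, *Hba-a1* (log2 fold change -2.65, adjusted p = 0.000451) and *Hbb-bs* (-2.21, adjusted p = 0.0132). *Slc4a1*, an anion exchanger gene of red cells, held 13 counts over the controls and 3 over the *Mettl3*-CKO libraries. Astrocyte genes summed to 100.1 to 224 and 58.7 to 88.5 CPM, with 2 of 6 tested called lower, *Gfap* (-1.31, adjusted p = 0.0230) and *Pdgfra*. Those 2 made most of the sums, *Pdgfra* with 64.7 to 135 and 36.8 to 53.0 CPM and *Gfap* with 20.6 to 61.5 and 8.23 to 19.3 CPM. All 6 tested were negative, with *Pax2* at -0.14 (adjusted p = 0.766 from edgeR), and the filtered *Aqp4* held 21 and 32 counts. Retinal pigment epithelium genes summed to 72.4 to 98.9 and 41.9 to 62.5 CPM, with 4 of 6 tested called lower, *Ttr* (-1.19, adjusted p = 0.00134), *Pmel*, *Tyr* and *Tyrp1*, and the defining gene *Rpe65* at 26 and 15 counts.

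Fibroblast and meningeal genes, which mark a neighbour of mural cells outside the retina, summed to 71.0 to 146 CPM in controls and 43.5 to 62.0 CPM in *Mettl3*-CKO retinas, of which *Pdgfra* alone made 64.7 to 135 and 36.8 to 53.0 CPM. It was the 1 gene called lower of 5 tested, and DESeq2 called 2 lower. Of the collagen genes, *Col1a2* held 270 counts over the controls and 152 over the *Mettl3*-CKO libraries (log2 fold change -0.89, adjusted p = 0.0755), *Col3a1* held 57 and 19, and *Col1a1* held 87 and 123. *Lum* held 0 counts over the controls and 5 over the *Mettl3*-CKO libraries, and *Dcn* held 6 and 6. Skeletal muscle genes, which share *Des* with mural cells, summed to 13.1 to 19.8 and 9.57 to 14.2 CPM, with 1 of 4 tested called lower, *Mylpf* (-0.89, adjusted p = 0.0387), and *Tnni2* at 3 counts over the controls and 10 over the *Mettl3*-CKO libraries. Lens genes gave 6 of 9 tested called lower, and 0 without controls 1 and 4, where 1 was called higher. Microglia genes summed to 37.0 to 119 and 64.1 to 93.2 CPM, with 0 of 7 called by edgeR or DESeq2 and, without controls 1 and 4, 4 called higher.

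For each tested gene the transcripts most alike over the 8 libraries were found by Pearson's r of log2 CPM, as a description, since all share the difference between the groups and control 1. For *Rgs5* these were *Igfbp7*, a vessel-associated gene (r = 0.987), *Angpt2* (r = 0.985) and *Tax1bp1* (r = 0.983). *Igfbp7* stood at 21.8, 8.76, 5.61 and 8.58 CPM in controls 1 to 4 and 2.60, 1.97, 4.94 and 3.91 CPM in *Mettl3*-CKO retinas 1 to 4, in nearly the order of *Rgs5*, and fell by 1.73 on the log2 scale (adjusted p = 0.0157 from edgeR). For *Abcc9* they were *Fads3*, *Ppp5c* and *Adamts18* (r = 0.983, 0.983 and 0.980), and for *Cspg4* they were *Rmi1*, *Fbxw2* and *Ipp* (r = 0.987, 0.982 and 0.982), of which *Rmi1* has a role in the repair of DNA.

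The most alike transcripts of *Pdgfb* were *Efcab7*, *Cwc27* and *Fam161b* (r = 0.987, 0.960 and 0.952), those of *Pdgfrb* were *Dbnl*, *Gigyf2* and *Mbtd1* (r = 0.970, 0.968 and 0.964), those of *Des* were *Gk5*, *Nxph3* and *2610008E11Rik* (r = 0.939, 0.927 and 0.927), and those of *Acta2* were *Vrk3*, *Mmab* and *Piezo2* (r = 0.988, 0.979 and 0.975). Among the mural cell genes themselves, over the same 8 libraries, *Rgs5* and *Abcc9* had r = 0.894, *Pdgfrb* and *Abcc9* had r = 0.888, and *Cspg4* was negative with 5 of the other 6 tested genes. *Rgs5* had r = 0.972 with the summed level of the 19 endothelial genes.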

How the data were processed

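Total RNA of whole retinas, taken into TRIzol, was made into NEBNext Ultra libraries. Per the labels and the methods of the study, the authors filtered paired-end reads, mapped them to GRCm38 (mm10) with Hisat2 and assigned them to genes with featureCounts, and the deposited values are raw read counts. The annotation release and the use of strand are not given in the sources used here, so genes that overlap another are uncertain. Of the 54532 genes, 54409 are in GENCODE vM21. All 8 columns were used, by their names.

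Differences between groups were fitted with edgeR 4.0.16 in R 4.3.3 (filterByExpr, TMM scaling, glmQLFit and glmQLFTest, Benjamini-Hochberg adjustment over 17998 genes, threshold 0.05). The biological coefficient of variation was 15.0%. CPM is after TMM scaling. DESeq2 1.42.0, limma 3.58.1 (voom with sample quality weights), other scalings and filters, a replicate block and left-out libraries were alternatives. Single genes were also compared by exact permutation tests (scipy 1.17.1) of log2 CPM. FPKM used the deposited gene lengths. No pair of libraries was alike within sampling noise (lowest chi-square 5.46 per gene). The labels do not say whether each library is 1 animal. The p-values rest on the spread between libraries, which may not be the spread between animals. The edgeR step was tested on simulated counts.

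The 9 genes, the 17 lists and the alternatives were chosen with earlier results of these data known. By rule, each of the 9 genes is named, and of each list the called genes (beyond 4, those with the 4 smallest adjusted p) and any gene at or under 3 counts in a group, with the 3 most alike transcripts of mean log2 CPM of at least 1. List genes named as context outside this rule were chosen after their values were seen. A few list genes within this rule are left unreported. No cause of a difference was tested.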

Additional observations from a re-analysis of the deposited data

Results flagged for a closer look

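In 2 of the 18 groups of 4 libraries examined (9 genes, 2 groups each), 1 library stood far from the other 3, where chance gives about 0.9 of 18. *Pdgfb* in *Mettl3*-CKO 3 had a log2 CPM of 0.86 (32 counts), below 1.53 to 1.60 in the other *Mettl3*-CKO libraries. *Des* in control 2 had a log2 CPM of -1.77 (3 counts, at the detection floor), below -0.16 to 0.10 in the other controls.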

How the results depend on the processing

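Of the 9 genes, 1 was called higher, *Cspg4*, in the 16 alternatives run. The number called lower was 2 with edgeR, 4 with limma voom with sample quality weights (*Pdgfrb* and *Acta2* added), 3 with DESeq2 (*Pdgfrb* added), 1 without controls 1 and 4, and 0 to 3 over the fits that left out a library, with 0 without *Mettl3*-CKO 1. Over all genes, 1168 were called higher and 729 lower with edgeR, 2142 and 1568 with limma voom, and 509 to 1882 and 185 to 1289 when a library was left out, the lowest without *Mettl3*-CKO 1 and the highest without control 1. *Pdgfb*, not called in any fit, turned from -0.40 to 0.13 with limma voom, 0.24 without controls 1 and 4 and 0.19 without control 1, on the log2 scale, and ran from -0.65 to 0.19 over the fits that left out a library. Over the fits that left out a library, *Rgs5* ran from -2.23 to -1.34 and *Abcc9* from -1.92 to -1.17, called in 7 and 5 of 8. A stricter filter (1 CPM in 4 samples) removed *Des* and *Acta2*, which have 15 alternatives each.

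Same-numbered samples, from 1 to 4, correlated at -0.11, 0.22, -0.11 and 0.25 in their deviations from the group means. The highest value of each control with a *Mettl3*-CKO library of another number was 0.26, 0.15, 0.13 and -0.05. Controls 2 and 4 thus matched best with their own number, and controls 1 and 3 did not. Whether the numbers mark pairs was left unsettled, and the main fit did not use them. With the replicate number as a block, 1198 genes were called higher and 660 lower, and no call of the 9 genes changed: *Rgs5* -1.79 (adjusted p = 0.0207), *Abcc9* -1.57 (0.0406), *Cspg4* 1.22 (0.00790) and *Pdgfrb* -0.72 (0.0659). Depth limits *Kcnj8*, *Anpep*, *Des* and *Acta2*, each under 30 counts in every library, and *Abcc9*, under 30 in 7 of 8.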
